A study of Mus musculus with 12 samples.

Results

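The genes described here lie on mouse chromosome 9 in the 10 Mb centromeric of Il18, which encodes the cytokine interleukin-18. They were chosen by position alone: non-control probes whose lower mm9 coordinate fell from 40389761 to 50389760, just short of the Il18 probe at chr9:50389761-50389820, were taken if each of the 3 arrays in 1 group or more showed them well above background. The window held 253 probes with 170 gene names, of which 178 probes passed, and 1 probe was kept for each name, the brightest. This gave 131 genes of 26497 tested on the whole array, while the remaining names of the window had no probe that passed. The signal was above background on all 12 arrays for 118 of the 131 and on fewer arrays for 13. Of the 131 names, 47 are only an accession, clone, RIKEN, Gm or interval name, and 88 matched a protein-coding gene of the annotation used here.

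Total RNA of whole brain was hybridised to one-colour Agilent arrays. Mice lacking Il18 (KO) were examined at 6 weeks and at 12 weeks of age, as were wild-type mice (WT) at the same ages, with 3 biological replicates and 1 array each in all 4 groups. All mice were labelled BALB/c and untreated. The labels give neither the strain in which Il18 was targeted, nor the number of backcrosses, nor the part of the gene that was removed, and they do not say whether WT mice were littermates.

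Gene targeting is done in embryonic stem cells of one strain, and the mutation is often moved to another strain by repeated crossing. DNA next to the mutation is separated from it only by recombination, so a stretch of the donor chromosome can travel with the mutant allele, and genes in it can then differ between mutant and wild type by their alleles. An array probe reads the amount of its RNA and also how well that RNA matches the probe, so a changed level and a mismatch cannot be told apart here. No genotypes were analysed, and retained donor DNA was not tested. The stretch itself is rich in genes known from brain and metabolism, among them the dopamine receptor gene Drd2, the adhesion gene Ncam1, the apolipoprotein cluster, the CD3 genes, the sodium channel subunits Scn2b and Scn4b, and Sorl1.

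The level of a gene is given below as log2 of its signal relative to the 75th percentile of its own array, and a change as KO minus WT on that log2 scale, with the standard error from limma (n = 3 arrays per group). A gene is called where its limma p, adjusted by Benjamini-Hochberg over all 26497 genes, was under 0.05. The 75th percentile ran from 890 to 1188 intensity units and the share of spots well above background from 65.9% to 76.2%. Every listed marker of neurons, astrocytes, oligodendrocytes and microglia that was tested (6 of each) was above background on all 12 arrays. Arrays lay on 2 slides: all WT arrays and KO replicates 1 and 2 of 6 weeks on slide 1, KO replicate 3 of 6 weeks and all 12-week KO arrays on slide 2. At 12 weeks slide and genotype therefore coincide, and a value with slide as a block rests there on the 6-week KO arrays. In bulk tissue fewer cells of a type and less RNA per cell cannot be told apart.

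Il18 itself had levels of -0.28, -0.17 and -0.20 in 6-week KO brains, against 1.60, 1.75 and 1.52 in WT brains. At 12 weeks it had -0.20, -0.23 and -0.32 in KO, against 1.51, 1.63 and 1.93 in WT. The KO arrays all lay below the WT arrays, and the change was -1.84 ± 0.10 at 6 weeks (limma adjusted p = 2.28e-05). Its probe stayed above background on every KO array.

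The results turn on a few probes, and the middle 30 bases (bases 16 to 45) of each 60-base probe are printed here, 5′ to 3′ on the probe's own strand, as in the deposited files. The first set shows the probes of the 2 called genes nearest to Il18 and of the gene with the smallest adjusted p, which let a reader check the probes for differences between strains. Bco2 lies on the minus strand at chr9:50341290-50341319, Pts on the minus strand at chr9:50330155-50330184 and Tmem25 on the minus strand at chr9:44601958-44601987 (mm9).
Bco2: gatcatatttaaattcttgttcccagcttg
Pts: aatgtaaggcctgtatttagatgtatttac
Tmem25: aacctgaaaacgactggcgaccatcagagt
The second set shows genes whose probes can be compared with each other. Fxyd2 had probes on the plus strand at chr9:45218296-45218325 and chr9:45218317-45218346. They start 21 bases apart and share 39 bases, of which the 9 in capitals fall within both printed stretches.
Fxyd2, first probe: atccccctggttttcaatgaaTCCTTGTAT
Fxyd2, second probe: TCCTTGTATaagcaactgccaatgaaatcg
Ift46, Sorl1 and Rps25 each had probes that read apart from each other, described further on, and no base is marked in them. Those of Ift46 lie on the plus strand at chr9:44598928-44598957 and chr9:44600752-44600781, and those of Sorl1 on the minus strand at chr9:41776587-41776616 and chr9:41773012-41773041. The dimmer probe of Rps25 lies on the plus strand at chr9:44218262-44218291. Printed bases of the brighter one would lie at chr9:44216966-44216995 if unbroken from its start. That probe spans chr9:44216951-44218094, however, which is longer than its 60 bases, so their place is not settled.
Ift46, brighter probe: acagactgctctgtcaggttgtgatggaat
Ift46, dimmer probe: ggcttgattgactccaggacaaatacgtag
Sorl1, brighter probe: taaaagatgcactttgagttgcaatatgtt
Sorl1, dimmer probe: ctcggctaggtttccaagtcactgatttct
Rps25, brighter probe: ggtctcaaagcacagagcccaagtaattta
Rps25, dimmer probe: tttattgaatcaaatgaatgggtgcatctg

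At 6 weeks 23 of the 131 flank genes were called, 11 higher and 12 lower in KO. That is 17.6%, against 0.925% of all genes tested. Among called genes above background on some array of both genotypes, the 10 higher ones ran from 0.43 to 1.58 log2 units (median 0.68) and the 10 lower ones from -1.68 to -0.60 (median -1.14). Treh, ENSMUST00000080911 and 1700063D05Rik were above background in 1 genotype only and have bounds, given further on. Over the whole flank the median size of the change was 0.211 (0.204 with the 6 genes that had a genotype wholly below background at their bound, or at 0 where no bound could be given), against 0.136 over all genes. The median signed change was 0.04 in both (0.03 in the flank with those bounds). In neighbouring windows the median size was close to that of the flank, 0.192 from 10 to 20 Mb centromeric and 0.187 within 10 Mb telomeric of Il18. The KO and WT arrays were wholly apart for 58 flank genes (44.3%), against 23.7% of all genes. Among the 118 flank genes above background on every array 19 were called (16.1%), against 0.912% of all such genes, and 4 of the other 13 were called.

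The calls were spread over the whole stretch. Within 2 Mb of Il18 4 of 15 genes were called, from 2 to 4 Mb 4 of 10, from 4 to 6 Mb 6 of 40, from 6 to 8 Mb 6 of 43 and from 8 to 10 Mb 3 of 23. Both directions occurred in each of these bins, and within 5 Mb the count was 8 of 43 (18.6%), against 15 of 88 (17.0%) from 5 to 10 Mb. With the arrays of slide 1 alone, however, it was 6 of 43 (13.95%) against 5 of 88 (5.68%). No bin of 2 Mb stood without a call inside the window, although in bins of 1 Mb those from 4 to 5 Mb (18 genes) and from 7 to 8 Mb (7 genes) had 0 by limma. The called gene farthest from Il18 was 1700063D05Rik at 9.37 Mb, which was above background in WT only and so passed the filter through WT alone. Next to it in distance was Sorl1 at 8.61 Mb.

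Beyond the window the share called was close to that of all genes, except just telomeric of Il18. From 10 to 20 Mb 1 of 110 genes was called (0.909%), Tmem218 at 13.36 Mb, and from 20 to 30 Mb 2 of 110 (1.82%). On the telomeric side of Il18 14 of 166 genes were called within 10 Mb (8.43%) and 0 of 128 from 10 to 20 Mb. Across the rest of chromosome 9 it was 11 of 1064 (1.03%), and across the other chromosomes 194 of 24954 (0.777%). At the edge of the window the genes just inside, an unnamed probe at 9.82 Mb and 9030425E11Rik (now Clmp) at 9.80 Mb, changed by 0.02 and -0.17 at 6 weeks. Those just outside, an unnamed probe at 10.09 Mb and the interval transcript next beyond it, changed by 0.16 and -0.13, and none of the 4 was called at the probe kept. A second probe of 9030425E11Rik changed by -0.55 ± 0.11 at 6 weeks. Its limma adjusted p over probes was 0.0653, or 0.0453 with slide as a block, so the absence of a call there depends on the probe and the fit.

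**Figure D1:**
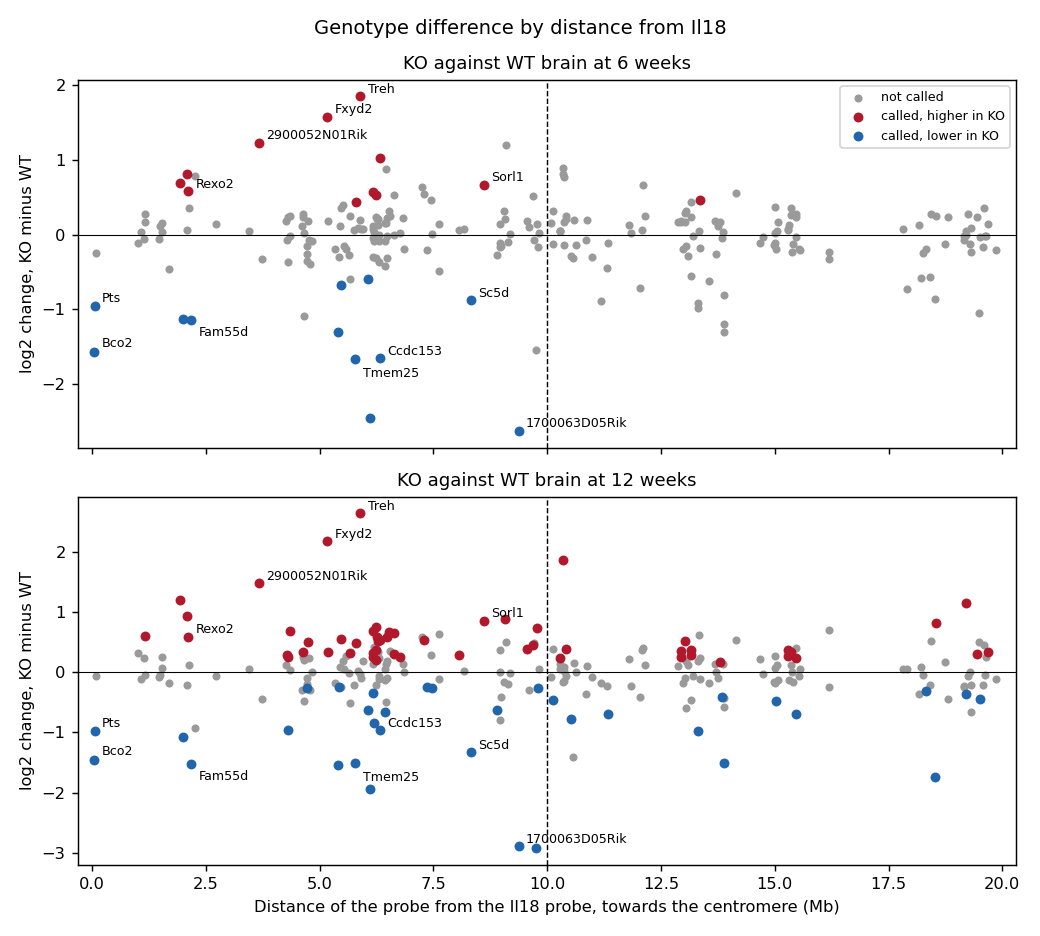
Log2 change (KO minus WT) at 6 weeks (top) and 12 weeks (bottom) of each chromosome 9 gene, by the distance of its probe from the Il18 probe in Mb towards the centromere; red points were called higher in KO, blue points called lower, grey points not called, and the dashed line marks the edge of the 10 Mb window; genes below background in 1 genotype, such as Treh and 1700063D05Rik, stand at their measured values. At 6 weeks 23 points are coloured left of the dashed line and 1 right of it, while at 12 weeks coloured points lie on both sides.

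Slide and slide column, read from the barcode in the file headers with its second field taken as the column, moved these counts. With slide as a block 17 flank genes were called at 6 weeks (13.0%, against 0.498% of all genes), and within slide 1 alone, with 2 KO arrays against 3 WT arrays, 11 (8.397%, against 0.204%). The 6-week WT arrays all lay in slide column 2 and the 6-week KO arrays in column 1, and with the column as a block 8 were called (6.11%, against 0.404%). All 23 called genes kept their direction under each of these, 14 kept the call with any 1 of the 6 arrays of that age left out, and 8 passed all 4 conditions. Without 6-week KO replicate 1 the count called was 14, and without any 1 of the 6-week WT replicates it was 15. Those 8 are Bco2, Pts, Fam55d, 2900052N01Rik, Fxyd2, Tmem25, Ccdc153 and 1700063D05Rik, the last of which was above background in WT only. With slide as a block the 2 Mb bins held 2 of 15, 4 of 10, 2 of 40, 6 of 43 and 3 of 23 calls, from near to far. Within slide 1 alone they held 2 of 15, 4 of 10, 2 of 40, 1 of 43 and 2 of 23. At 6 weeks slide column and genotype coincide. A value with the column as a block therefore rests on 12-week WT replicate 1 (column 2) against replicates 2 and 3 (column 1). The part of slide column in any of the 23 calls was not tested further.

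**Figure D2:**
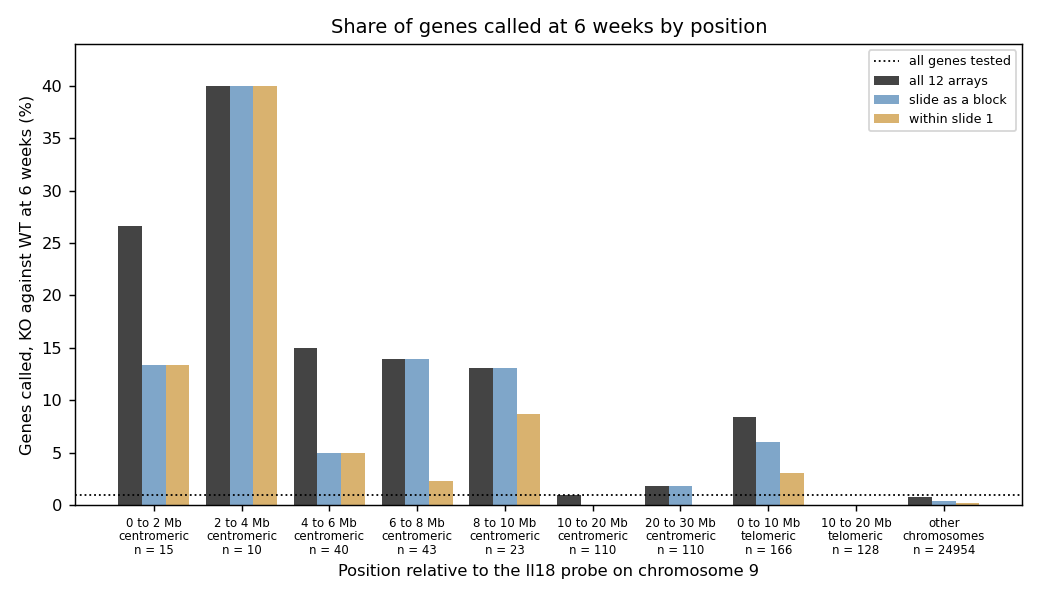
Percentage of genes called between KO and WT at 6 weeks, in bins of 2 Mb within the flank, in neighbouring windows of 10 Mb and on the other chromosomes, with all 12 arrays (dark bars), with slide as a block (blue) and within slide 1 alone (ochre); n is the number of genes and the dotted line the share over all genes tested, 0.925%. All 5 bins of the flank lie above the dotted line under each of the 3 fits, and the 10 to 20 Mb windows on either side lie at or below it.

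The genes nearest to Il18 split into a strongly lower pair and a group with no call. Bco2, the mitochondrial enzyme that cleaves carotenoids, lies 48.5 kb away. It had -3.50, -3.27 and -3.13 in 6-week KO brains, against -1.69, -1.69 and -1.79 in WT brains, and -3.08, -3.198 and -3.32 in 12-week KO brains, against -1.81, -1.73 and -1.67 in WT brains. Every KO array lay more than a log2 unit below every WT array, with changes of -1.58 ± 0.10 at 6 weeks (limma adjusted p = 4.74e-05) and -1.46 ± 0.10 at 12 weeks (5.82e-05).

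Pts, which makes a precursor of tetrahydrobiopterin, the cofactor of dopamine and serotonin synthesis, lies 59.6 kb away. Its levels were -0.13, -0.04 and -0.19 in 6-week KO, against 0.77, 0.94 and 0.79 in WT, and -0.22, -0.12 and -0.10 in 12-week KO, against 0.75, 0.79 and 0.94 in WT. The groups did not overlap at either age, and Pts fell by 0.95 ± 0.08 at 6 weeks (limma adjusted p = 0.000305) and by 0.97 ± 0.08 at 12 weeks (0.000183).

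The next 8 genes by distance, from 0.08 to 1.503 Mb, were not called at 6 weeks. They are 1600029D21Rik (now Plet1), the transcript ENSMUST00000068730, Ncam1, Ttc12, Ankk1, Drd2, Tmprss5 and Zw10, and their changes ran from -0.25 in 1600029D21Rik to 0.27 in Ankk1. Drd2, the dopamine D2 receptor, had -2.11, -2.14 and -1.79 in 6-week KO, against -2.12, -2.15 and -2.27 in WT. Its change of 0.17 ± 0.20 was smaller than the spread (limma adjusted p = 0.664). Ncam1, the neural cell adhesion molecule, changed by 0.04 ± 0.06 (adjusted p = 0.765), and its arrays overlapped as well. Ankk1, a kinase gene beside Drd2, was called at 12 weeks, with 0.60 ± 0.15 (limma adjusted p = 0.0132). Slide and genotype coincide at that age, and with slide as a block the gene was not called (limma adjusted p = 0.517). The difference between its changes at the 2 ages was not called either.

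Of the 13 flank genes listed as metabolic enzymes and transporters, a list that also holds the membrane proteases of the stretch and the kinase Ankk1, 3 rose and 5 fell at 6 weeks. For this list and those below, the shares to compare are 17.6% of the flank genes and 0.925% of all genes called at 6 weeks. The median change of the list was 0.11, against 0.04 over all genes. Besides Bco2 and Pts the falls were in Nnmt, Tmprss4 and Sc5d, and the rises included Treh and Slc37a4. Nnmt, Tmprss4 and Treh were not called with slide as a block.

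Sc5d, a desaturase late in cholesterol synthesis, lies 8.33 Mb from Il18. It had 1.72, 1.64 and 1.34 in 6-week KO, against 2.35, 2.55 and 2.44 in WT, and 1.002, 0.94 and 0.97 in 12-week KO, against 2.25, 2.34 and 2.31 in WT. KO was lower on every array, and lower again at 12 weeks. The change was -0.88 ± 0.10 at 6 weeks (limma adjusted p = 0.00314) and -1.33 ± 0.10 at 12 weeks (0.0001).

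Nnmt, which methylates nicotinamide, had -4.71, -5.16 and -4.98 in 6-week KO, against -3.73, -3.79 and -3.94 in WT. The arrays were apart, with a change of -1.13 ± 0.19 (limma adjusted p = 0.0263, or 0.0705 once slide is a block). Tmprss4, a transmembrane serine protease, had -6.03, -5.46 and -5.70 in KO, against -4.45, -4.08 and -4.74 in WT, with a change of -1.31 ± 0.24 (limma adjusted p = 0.0403). Fitting slide as a block gave 0.0932.

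Treh, the enzyme that splits the sugar trehalose, was well above background on all 6 KO arrays and on none of the 6 WT arrays. Measured values were -5.89, -5.16 and -5.19 in 6-week KO, against -7.49, -6.91 and -7.40 in WT, and -5.17, -5.58 and -4.94 in 12-week KO, against -7.63, -8.64 and -7.35 in WT. WT has only a bound here, taken per array as the higher of the probe's own value and the lowest signal well above background. Treh was at least 1.12-fold higher in KO at 6 weeks (limma adjusted p = 0.0354, or 0.0951 once slide is a block) and at least 1.91-fold higher at 12 weeks (0.00335). The p values come from the measured values and do not test the bounds.

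Slc37a4, the glucose-6-phosphate transporter of the endoplasmic reticulum, had 2.40, 2.37 and 2.50 in 6-week KO, against 1.80, 1.90 and 1.86 in WT, a rise of 0.57 ± 0.07 (limma adjusted p = 0.00763). Its KO arrays stood above all WT arrays at 6 and at 12 weeks.

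Among the 4 regulators of the sodium pump and of sodium channels 1 rose at 6 weeks. Fxyd2, the gamma subunit that modulates the sodium-potassium pump, had 2.58, 2.70 and 2.91 in 6-week KO, against 0.99, 1.20 and 1.26 in WT. At 12 weeks it had 3.09, 3.25 and 2.84 in KO, against 0.996, 0.88 and 0.74 in WT. The groups were far apart at both ages, 2.99-fold higher in KO at 6 weeks (1.58 ± 0.13, limma adjusted p = 0.000292) and 4.54-fold at 12 weeks (2.18 ± 0.13, 2.02e-05). Its neighbour Fxyd6, of the same protein family, changed by 0.18 ± 0.09 at 6 weeks (limma adjusted p = 0.300). The beta subunits of voltage-gated sodium channels changed by -0.30 ± 0.08 in Scn4b (0.104) and 0.11 ± 0.07 in Scn2b (0.366) at that age.

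Of the 16 genes listed for membrane trafficking, cytoskeleton and cilia, 1 rose and 2 fell at 6 weeks. Tmem25, an immunoglobulin-family membrane protein of neurons, had the smallest adjusted p of the flank. It had 1.52, 1.502 and 1.74 in 6-week KO, against 3.31, 3.20 and 3.29 in WT, and 1.71, 1.85 and 1.73 in 12-week KO, against 3.33, 3.20 and 3.26 in WT. No KO array came within a log2 unit of a WT array. It was 3.19-fold lower in KO at 6 weeks (-1.68 ± 0.08, limma adjusted p = 6.42e-06) and 2.83-fold lower at 12 weeks (-1.5004 ± 0.08, 1.19e-05).

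Ccdc153, a coiled-coil gene of ciliated cells, had -1.57, -1.76 and -1.56 in 6-week KO, against -0.07, 0.00 and 0.17 in WT, and -0.69, -0.63 and -0.84 in 12-week KO, against -0.04, 0.32 and 0.44 in WT. KO was lower throughout, with changes of -1.66 ± 0.12 at 6 weeks (limma adjusted p = 0.000173) and -0.96 ± 0.12 at 12 weeks (0.0036). Of the ependymal marker list 6 of 6 tested genes were above background on all arrays and 0 were called in either direction at either age by limma. The summed signal of those markers, relative to the 75th percentile, was 5.83 to 6.31 in 6-week KO, against 6.54 to 6.61 in WT, and 6.71 to 7.62 in 12-week KO, against 6.36 to 7.52 in WT. Its part in the level of Ccdc153 was not tested.

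Pdzd3, a PDZ scaffold gene, is read by a probe on the opposite strand 781 bases from that of Ccdc153, and it moved the other way. It had -3.26, -3.34 and -3.37 in 6-week KO, against -4.21, -4.43 and -4.43 in WT, a rise of 1.03 ± 0.15 (limma adjusted p = 0.0155). At 12 weeks it had -3.88, -3.37 and -3.66 in KO, against -4.41, -4.26 and -3.88 in WT, with a change of 0.54 ± 0.15 (0.0226), and the groups touched.

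Among 12 genes for neurotransmitter receptors and synaptic adhesion 1 was called at 6 weeks. Sorl1, the sorting receptor that binds the amyloid precursor protein, had 4.21, 4.04 and 4.29 in 6-week KO, against 3.43, 3.42 and 3.67 in WT, a rise of 0.67 ± 0.10 (limma adjusted p = 0.0149). The arrays were apart at this probe, but a second probe of the gene read otherwise, as given below. Htr3a, a subunit of the serotonin-gated ion channel, had -2.88, -3.07 and -2.54 in KO, against -2.19, -2.47 and -2.43 in WT. Its change of -0.47 ± 0.15 was not called (limma adjusted p = 0.153), although the arrays did not overlap. Bace1, the beta-secretase, changed by -0.15 ± 0.07 (0.280).

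Of 10 chromatin, DNA and transcription genes 1 rose and 1 fell. Zbtb16, a zinc-finger transcriptional repressor, had 1.92, 1.76 and 2.16 in 6-week KO, against 1.15, 1.29 and 1.32 in WT. The arrays were apart, and the change of 0.69 ± 0.14 stood at the threshold (limma adjusted p = 0.0495, or 0.104 once slide is a block). Bcl9l, a co-activator of beta-catenin, had -2.63, -2.49 and -2.45 in KO, against -1.80, -2.07 and -1.92 in WT, a change of -0.60 ± 0.09 (limma adjusted p = 0.0160).

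Of 12 genes for RNA and protein synthesis, folding and turnover Rexo2, a mitochondrial exonuclease of short RNAs, was called. It had 2.33, 2.31 and 2.24 in 6-week KO, against 1.66, 1.76 and 1.71 in WT, with a rise of 0.58 ± 0.06 (limma adjusted p = 0.00190). At 12 weeks the rise was 0.59 ± 0.06 (0.00119), and no array of one genotype reached the other at either age. None of the 9 listed CD3 cluster and immune receptor genes, which took in the CD3 epsilon chain, and neither of the 2 apolipoprotein genes Apoa5 and Apoc3 was called at 6 weeks.

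The remaining called genes belong to no list. Fam55d (now Nxpe4), of the neurexophilin-like family, had -1.92, -1.93 and -2.04 in 6-week KO, against -0.88, -0.78 and -0.79 in WT, and -2.24, -2.24 and -2.37 in 12-week KO, against -0.94, -0.73 and -0.62 in WT. Every KO array was lower, with changes of -1.14 ± 0.09 at 6 weeks (limma adjusted p = 0.000173) and -1.52 ± 0.09 at 12 weeks (1.72e-05).

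The RIKEN transcript 2900052N01Rik had 0.88, 0.88 and 1.25 in 6-week KO, against -0.20, -0.19 and -0.29 in WT, and 1.19, 1.31 and 1.10 in 12-week KO, against -0.32, -0.30 and -0.23 in WT. It rose on every KO array, by 1.23 ± 0.10 at 6 weeks (limma adjusted p = 0.000329) and by 1.49 ± 0.10 at 12 weeks (5.90e-05). Gm5617 rose by 0.81 ± 0.10 at 6 weeks (limma adjusted p = 0.00508) and by 0.94 ± 0.10 at 12 weeks (0.00126).

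1700063D05Rik was well above background on all 6 WT arrays and on no KO array. It measured -7.61, -7.81 and -7.30 in 6-week KO, against -4.66, -4.92 and -5.23 in WT, and was at least 2.12-fold lower in KO (limma adjusted p = 0.000447). At 12 weeks it was at least 2.75-fold lower (0.000170). The transcript ENSMUST00000080911 was above background on no KO array and, of the WT arrays, on 1 of 3 at 6 weeks and on 3 of 3 at 12 weeks. At 6 weeks the mean of its 3 WT arrays stood 1.20-fold above the KO bound (limma adjusted p = 0.00711). With only 1 of those WT arrays above background, this is not a firm lower limit. At 12 weeks the transcript was at least 1.14-fold lower in KO (0.00499). For 1700063D05Rik and ENSMUST00000080911 too, the p values come from the measured values and do not test the bounds. Gm10684, with -5.02, -4.91 and -4.75 in 6-week KO, against -4.13, -4.29 and -4.23 in WT (limma adjusted p = 0.0374, or 0.0553 with slide as a block), was the 1 gene of the 23 not called at 12 weeks (-0.24 ± 0.12, adjusted p = 0.165).

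**Figure D3:**
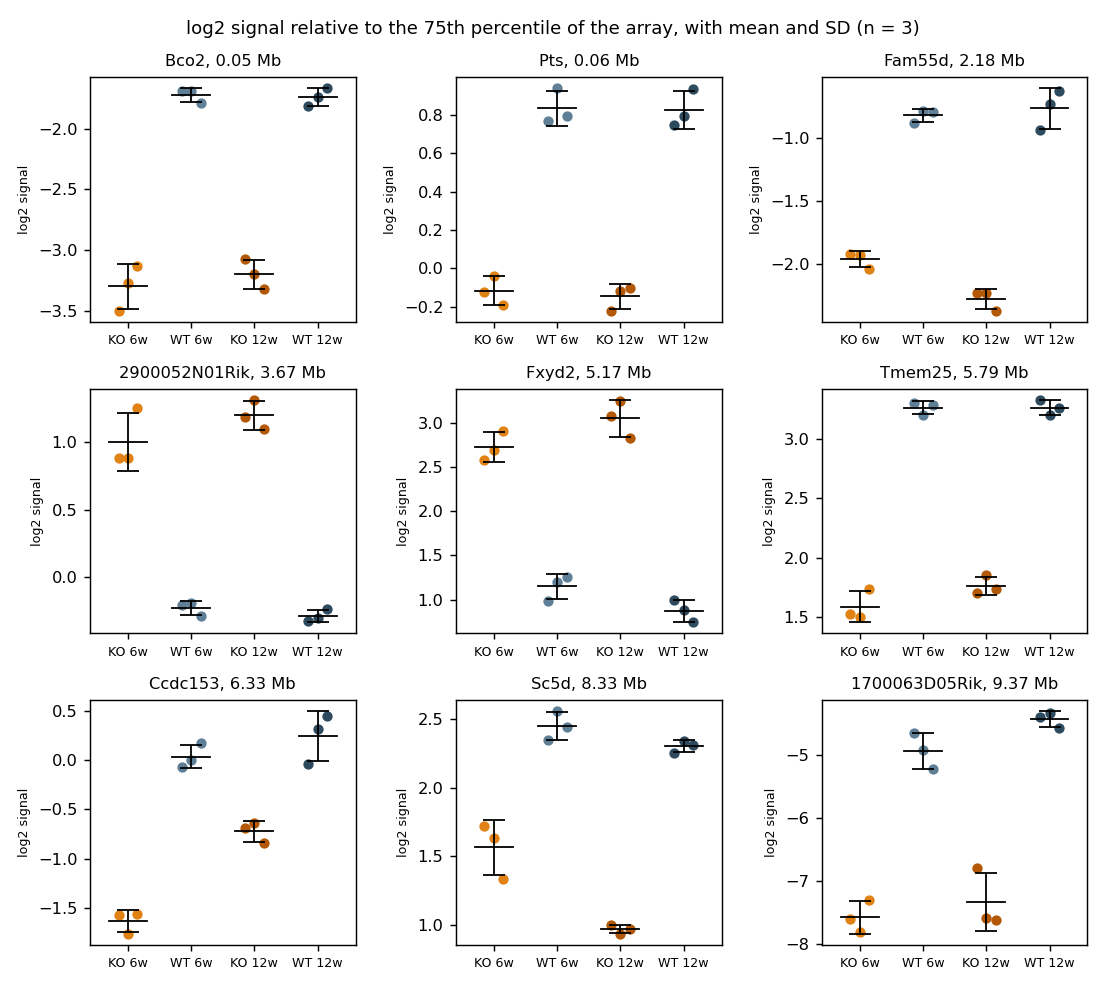
Level (log2 signal relative to the 75th percentile of the array) of 9 called flank genes on each array, in 6-week KO, 6-week WT, 12-week KO and 12-week WT brains, with distance from Il18 in the panel titles; points are arrays, and lines with bars are the mean ± SD (n = 3). In each panel KO and WT points are apart at both ages, and KO is higher for 2900052N01Rik and Fxyd2 and lower for the other 7.

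Several genes were read by more than 1 probe, which shows how far a call belongs to a probe. A fit over all 37200 probes called 29 of the 178 probes of the window at 6 weeks, 12 higher and 17 lower (16.3%, against 0.624% of all probes). Of 34 flank genes with several probes, 10 had a probe called, 3 of these with every probe called. The same was not counted over the 7091 such genes of the whole array, so these counts have no share beside them. Cep164 and C2cd2l are named in what follows after their values were seen.

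The overlapping probes of Fxyd2 gave 1.58 ± 0.13 and 1.46 ± 0.11, which share most of their sequence. The probes of Rexo2, 6316 bases apart, gave 0.58 ± 0.06 and 0.51 ± 0.08, both called higher. Ift46, a subunit of the intraflagellar transport machinery of cilia, was the 1 gene with probes called in both directions at 6 weeks.

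The brighter probe of Ift46 had 3.68, 3.73 and 3.76 in 6-week KO, against 3.34, 3.30 and 3.25 in WT, a rise of 0.43 ± 0.07 (limma adjusted p over probes = 0.0296, or 0.0701 with slide as a block). The dimmer one, 1824 bases away, had -5.23, -4.64 and -4.65 in KO, against -3.08, -2.67 and -2.75 in WT, a change of -2.01 ± 0.27 (0.0125, or 0.0357 with the block). With slide as a block the call in opposite directions thus ended at the brighter probe. Neither pair of groups overlapped, and the same directions held at 12 weeks (0.48 ± 0.07 and -2.33 ± 0.27). The dimmer probe lies 1206 bases from the probe of Tmem25, a gene read from the other strand, and the part of Tmem25 in its signal was not tested.

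Sorl1 changed by 0.67 ± 0.10 at its brighter probe and by -0.12 ± 0.10 at a probe 3575 bases away, where 2.76, 2.88 and 2.65 in 6-week KO stood against 2.70, 2.87 and 3.07 in WT and the arrays overlapped. Slc37a4 changed by 0.57 ± 0.07 and by -0.22 ± 0.43 at probes 5251 bases apart. The latter probe is near background, above it on 2 of 3 KO and 2 of 3 WT arrays at 6 weeks, so it says little about the former. In Sorl1 and in Slc37a4 1 of 2 probes was called at 6 weeks, and with slide as a block the limma adjusted p over probes was 0.0590 for that of Sorl1.

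In other genes the probe that was kept showed no call while another did. Rps25, a protein of the small ribosomal subunit, changed by 0.12 ± 0.08 at its brighter probe (limma adjusted p over probes = 0.472). At the dimmer probe it had -3.17, -3.24 and -3.18 in 6-week KO, against -2.22, -2.0 and -2.13 in WT, a change of -1.08 ± 0.11 (0.00162), with KO lower on every array. Cep164, a protein of the distal appendages of the centriole, changed by -0.60 ± 0.10, -0.44 ± 0.15 and -0.07 ± 0.14 at 3 probes, of which the first was called (0.0326, or 0.0707 with slide as a block). C2cd2l changed by -0.57 ± 0.10 at its dimmer probe (0.0328) and by 0.21 ± 0.11 at the other. Mpzl3, an adhesion protein of the myelin protein zero family, changed by -0.93 ± 0.28 and 0.40 ± 0.27 at its probes, and neither was called. At 6 weeks the first was above background on 1 of 3 KO arrays and the second on 2 of 3 WT arrays.

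**Figure D4:**
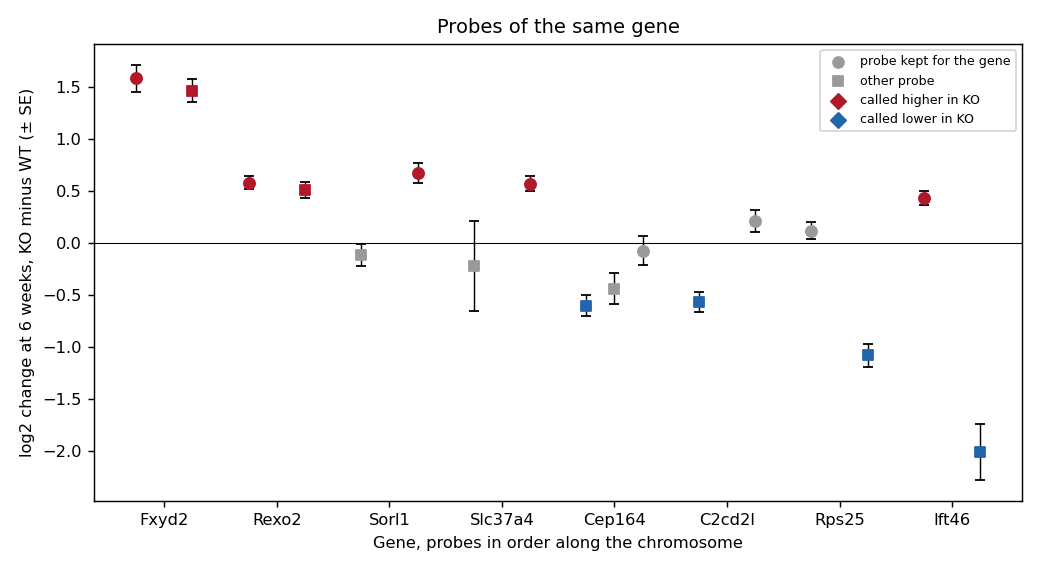
Log2 change at 6 weeks (KO minus WT, ± SE) of every probe of 8 flank genes with several probes, in order along the chromosome; circles are the probe kept for the gene, squares other probes, red was called higher in KO, blue called lower, grey not called. The probes of Fxyd2 and of Rexo2 lie together above 0, and those of Ift46 and Rps25 lie more than a log2 unit apart.

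At 12 weeks 59 of the 131 genes were called (37 higher and 22 lower, 45.04%), against 33% of all genes tested. The arrays were apart for 84 genes (64.1%), against 52.4%. Calls thus covered much of the genome at this age, and with slide as a block 7 flank genes were called (5.34%, against 0.113%). The share was 44.5% from 20 to 30 Mb centromeric and 43.4% within 10 Mb telomeric of Il18, close to that of the flank, against 26.4% from 10 to 20 Mb centromeric. Among genes above background on some 12-week array of both genotypes, the 36 called higher ran from 0.21 to 2.18 and the 19 called lower from -1.54 to -0.24. Of the 23 genes called at 6 weeks, 22 were called at 12 weeks in the same direction, and in 21 of the 23 the 12-week arrays did not overlap. Over the whole array 245 genes were called at 6 weeks and 8739 at 12 weeks, and 8593 of the latter were not called at 6 weeks.

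Another 37 flank genes (28.2%) were called at 12 weeks but not at 6 weeks, against 32.4% of all genes, and their median size of change was 0.390. With slide as a block the size was smaller in 32 of the 37, with a median of 0.168, and none of them was called. Hspa8, the constitutive heat shock chaperone, had 7.88, 7.78 and 7.86 in 12-week KO, against 7.23, 7.11 and 6.98 in WT, a change of 0.73 ± 0.18 (limma adjusted p = 0.0151). Its change was -0.04 once slide was in the model. Sik3, a salt-inducible kinase, changed by 0.69 ± 0.11 (limma adjusted p = 0.00499), and by 0.38 with slide as a block. Apoa5 changed by -0.96 ± 0.18 (0.00663), and by -0.63 with the block.

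The changes at the 2 ages come from different arrays and can be set beside each other, although the WT arrays of both ages share a slide. Across the 131 flank genes, which are not independent replicates, they correlated with Pearson's r = 0.86 and Spearman's rho = 0.75, against 0.37 and 0.46 across all genes. The sign was the same for 98 genes (74.8%), against 68.3% of all genes. Across the 108 flank genes not called at 6 weeks r was 0.61. With the 6-week change taken within slide 1 alone, r was 0.80 in the flank and 0.42 in those 108 genes, against 0.117 across all genes.

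**Figure D5:**
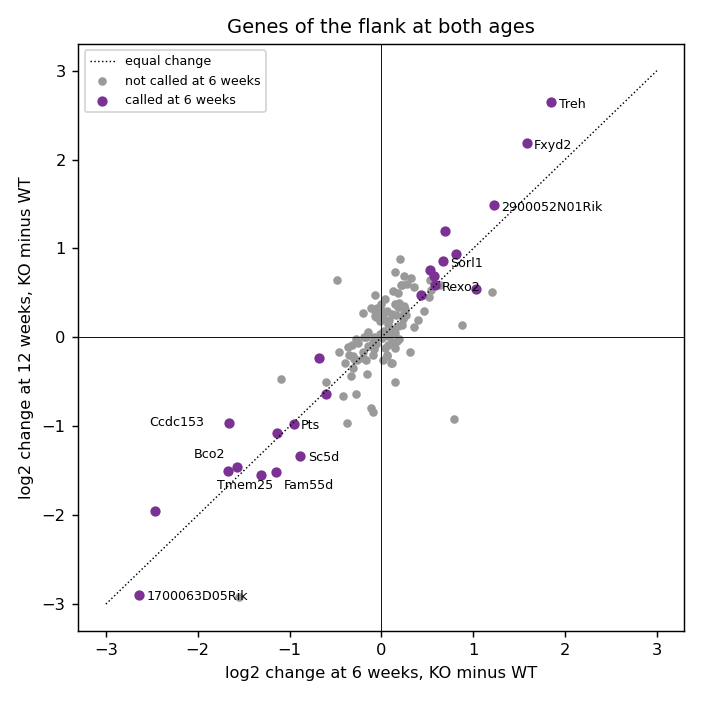
Log2 change (KO minus WT) at 12 weeks against that at 6 weeks for the 131 flank genes, with genes called at 6 weeks in purple, other genes in grey and the dotted line marking equal change; genes with a genotype below background stand at their measured values. The 23 purple points all have the same sign at both ages, and r over all points is 0.86.

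Over both ages together 65 flank genes were called (36 higher and 29 lower, 49.6%), against 32.7% of all genes. With slide as a block 13 remained called (9.92%, against 0.166%). Among these were Bco2, Pts, Gm5617, Rexo2, Fam55d, 2900052N01Rik, Fxyd2, Tmem25, Slc37a4, Ccdc153, Sc5d and 1700063D05Rik. Leaving out 1700063D05Rik, which was above background in WT only, the blocked changes ran from -1.74 in Tmem25 to 1.70 in Fxyd2.

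Between 12 and 6 weeks in KO 4 flank genes were called (2 higher and 2 lower, 3.05%), against 2.01% of all genes. Ccdc153 rose by 0.91 ± 0.12 (limma adjusted p = 0.0191) and Mpzl2, of the same family as Mpzl3, by 0.54 ± 0.11 (0.0452), whereas Sc5d fell by 0.60 ± 0.10 (0.0324). The clone TC1700796, named after its values were seen, changed by -0.88 ± 0.19 (0.0484). With slide as a block 0 flank genes were called in this comparison, against 0.0717% of all genes, and without 6-week KO replicate 3 there were 29. Without that array the 6-week KO arrays all lie on slide 1 and the 12-week KO arrays on slide 2, so age and slide coincide in KO. Between 12 and 6 weeks in WT limma called 0 flank genes (13 at an unadjusted p under 0.05), against 0.638% of all genes. The difference of the genotype change between ages was called for 0 (27 unadjusted), against 0.189%, and for 20 without 6-week KO replicate 3. The counts of 29 and 20 have no share over all genes beside them.

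Composition, strand and spacing of the probes were compared as well. Median GC content of the probes was 45% in genes called higher, in genes called lower and in flank genes not called, against 43.3% over all genes. Of the genes called higher 6 lay on the plus and 5 on the minus strand, and of those called lower 5 and 7. In 6 of the 23 another flank gene's probe lay within 1000 bases, as in 21 of all 131.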

How the data were processed

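The authors deposited a scan file per array and a series value table. Per the submitters' processing notes the scans went through Agilent Feature Extraction 10.7.3.1. Per the file headers the deposited signal columns hold intensity: processed signal, mean signal, and median local background. The other deposited columns, per the file headers, are flags of 0 or 1 for spots well above background, saturated or outlying. The deposited value table is also intensity and differed from the processed signal by at most 0.498%.

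Outlier spots were left out (107 to 220 of 59305 non-control spots per array), the processed signal was taken as log2 minus that of the array's 75th percentile, and spots of a probe were averaged. Probes with every array of 1 group or more well above background were kept (37200), then the brightest per gene name (26497 genes). Python 3.11.15 and R 4.3.3 were used. limma 3.58.1 (lmFit, eBayes) was fitted with 1 mean per group over 12 arrays and 8 residual degrees of freedom, two-sided, and was tested on simulated data. The arrays' number limits the precision.

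Positions are mm9, as in the files. Newer symbols came from a RefSeq table of GRCm38.p6, used for names only, in which 96 of 131 flank genes matched, and whether a probe lies in an exon or a UTR was not analysed here. Where a group had no array above background, a bound is given from the lowest signal well above background on each array. The limma p of such a gene comes from its measured values.

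The members, gene lists and tests were chosen with earlier results of these data known. Named genes are Il18, all called at 6 weeks or, with slide as a block, over both ages, the 10 nearest to Il18, the 8 largest rises and falls called at 12 weeks, up to 5 per age comparison, up to 4 per role list by p at 6 weeks, and the 5 with the most unlike probes. Genes with only an accession, clone, RIKEN, Gm or LOC name are named only in the first 3 of these. Of the genes this rule names, 1 is not reported here. Replicate numbers were read as separate animals. Of 18 same-numbered pairs 2 had deviations correlated over 0.1, so the numbers did not pair the samples.

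Alternatives were slide as a fixed or random block, slide column as a block, slide 1 alone, a replicate block, normexp with an offset of 50, quantile or median scaling, the deposited value table, other filters on dim probes, array weights, robust eBayes with a trend, a fit of only the groups compared, a minimum of 1.5-fold, the mean of a gene's probes, and each array left out.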

Additional observations from a re-analysis of the deposited data

How the results depend on the processing

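The number of flank genes called at 6 weeks (23) was 10 with only the groups compared, 8 with slide column as a block, 11 within slide 1, and 14 to 22 with 1 array left out (14 without 6-week KO replicate 1 and 15 without each 6-week WT replicate). At 12 weeks (59) it was 7 with slide as a fixed block, 12 as a random block, 33 with at least 1.5-fold and 42 to 71 with 1 array left out. Over both ages (65) it was 13 with slide fixed, 23 random, 18 with slide column, 26 with at least 1.5-fold and 56 to 65 with 1 array left out. Between ages in KO (4) it was 38 with array weights, 8 with trend and robust eBayes, 1 with no filter, 0 with only the groups compared, slide fixed or slide random, and 0 to 29 with 1 array left out (29 without 6-week KO replicate 3). The difference between ages (0) gave 28 with array weights, 1 with slide column and up to 20 with 1 array left out, again 6-week KO replicate 3. Between ages in WT it was 0 under every alternative run. The counts of this paragraph stand without the share over all genes in the same fit. The replicate block gave 18 calls at 6 weeks, 51 at 12 weeks, 61 over both ages and 0 between ages in KO. The direction turned for Gm10684 over both ages with normexp (0.042), Hspa8 with slide fixed (-0.0434 at 12 weeks, -0.0779 over both ages), and Rps25 at 12 weeks with quantile scaling (-0.0113). With the mean of a gene's probes it turned for Ift46 (-0.79 at 6 weeks, -0.92 at 12 weeks, -0.86 over both ages), Rps25 (-0.48, -0.41 and -0.45) and Mpzl3 over both ages (-0.33), whose probes differ in direction. For the other turns the cause was not tested. Of the named genes' values 3932 kept direction and side of the threshold, 377 kept direction without the call, 39 gained it and 11 turned. Within slide 1 the 12-week comparison was not run, since KO has no array there, and the comparisons over both ages use all groups already. For genes below background in 1 genotype, as Treh and 1700063D05Rik, folds are given only as bounds.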
